A study of Mus musculus with 28 samples.

Results

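The 7 features described here are the most abundant of 40303 counted features once 18 features with the lowest ID numbers, those below MGP_BALBcJ_G0000020, are set aside. They were chosen by their mean share of library counts over all 28 libraries, so their abundance is the rule and not a finding. In order of that mean share they are MGP_BALBcJ_G0007650 (11.002%), MGP_BALBcJ_G0005777 (2.37%), MGP_BALBcJ_G0029684 (0.826%), MGP_BALBcJ_G0030878 (0.498%), MGP_BALBcJ_G0030305 (0.436%), MGP_BALBcJ_G0009097 (0.426%) and MGP_BALBcJ_G0024435 (0.415%). The boundary is narrow. The last member lies just above the next feature outside the list, which had a mean share of 0.397%, and the following 2 had 0.392% and 0.376%. The deposited tables list IDs without gene names, and the mouse gene tables used here hold 0 of the 7. No name, position, length or function is therefore given for any of them.

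The libraries are bulk RNA-seq of 3 subsets of B lineage cells from the spleen, sorted from female mice that were matched in age. CD23+ B cells came from 6 WT animals with low dsDNA, 3 Xist cKO animals with low dsDNA (cKO low) and 3 Xist cKO animals with high dsDNA (cKO high). CD11c+ age-associated B cells (ABC) came from 4 WT and 3 cKO high animals, while B220- CD138+ cells, the long-lived plasma cells (LLPC), came from 6 WT and 3 cKO high animals. In ABC and LLPC, genotype and disease state therefore cannot be told apart. The study asked how deleting Xist in B cells bears on each subset in spontaneous lupus; cKO high animals had lupus pathology, and cKO low and WT animals were healthy. The labels do not give the line that drives the deletion, the strain or the ages. Library totals ran from 2133489 to 23866710 counts, and the targeted gene and the markers of each sorted subset could not be checked without gene names.

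As background, follicular B cells, which carry CD23, are resting cells that circulate through spleen and lymph nodes and present antigen to T cells. Age-associated B cells that carry CD11c accumulate with age and in lupus. Plasma cells have stopped proliferating and devote much of their transcription to secreted immunoglobulin, so that a few transcripts can fill a large part of an RNA-seq library. In female cells the Xist RNA, which is not translated, spreads over 1 X chromosome and keeps most of its genes silent. The counting unit here is the share of a library's counts, in percent, or CPM, the count scaled to a fixed library total, both on plain library totals. Neither is divided by feature length, so a higher share of 1 feature than of another does not mean more molecules.

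The 7 features together took 11.9% ± 0.554 of counts in CD23+ WT (SD, n = 6), 11.9% ± 0.267 in CD23+ cKO low (n = 3) and 12.4% ± 1.51 in CD23+ cKO high (n = 3). Their sum was 12.97% ± 2.45 in ABC WT (n = 4) and 12.9% ± 0.177 in ABC cKO high (n = 3), and it was 22.6% ± 3.64 in LLPC WT (n = 6) and 25.7% ± 1.96 in LLPC cKO high (n = 3). The lowest plasma cell library held 16.5% and the highest library of the other subsets, an ABC WT library, 16.0%. The list is not the same list in each subset. Ranked on CD23+ libraries alone, 5 of the 7 would have been among the first 7 outside the lowest IDs, on ABC libraries alone also 5, and on LLPC libraries alone 4. MGP_BALBcJ_G0029684 entered through plasma cells, where it took place 2, against place 8046 in CD23+ cells and 855 in ABC. MGP_BALBcJ_G0009097 was also among the first 7 only in plasma cells, at place 4 against 15 in CD23+ cells and 15 in ABC. MGP_BALBcJ_G0024435 and MGP_BALBcJ_G0030305 entered through the other subsets, with places 5 and 6 in CD23+ cells and 38 and 18 in LLPC. Beside a single library's share, the 95% Wilson interval was at most 0.0375 percentage points wide on either side for MGP_BALBcJ_G0007650 and at most 3.24% of the share for the others except MGP_BALBcJ_G0029684. These intervals take in the sampling of reads alone. Whether PCR copies of a molecule were counted as separate reads is not given. Where they were, the intervals are too narrow for molecules.

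**Figure D1:**
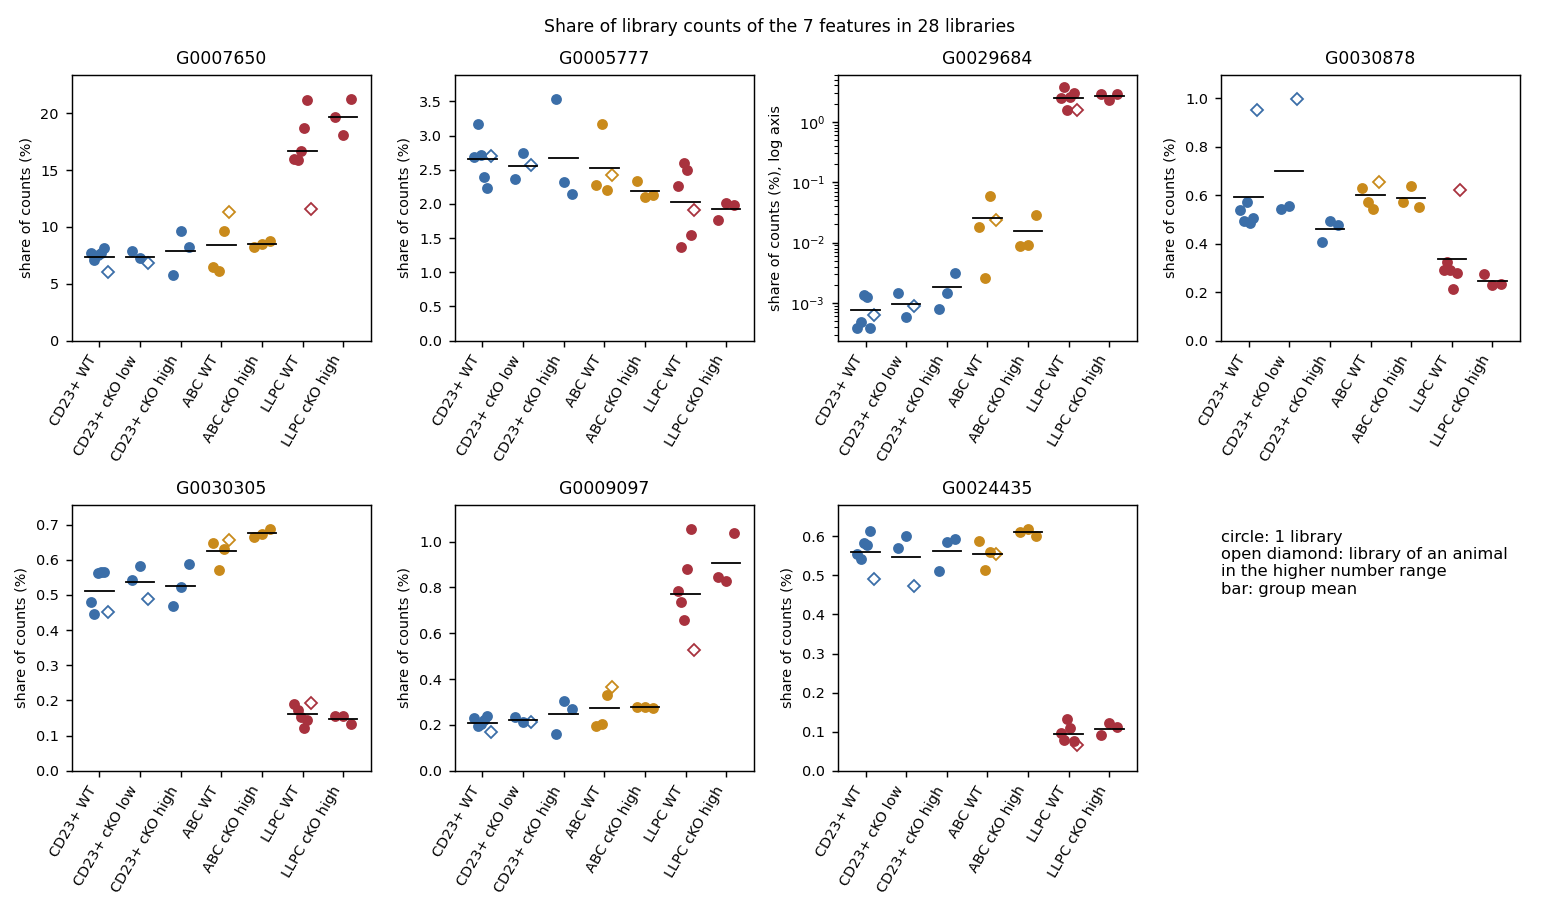
Share of library counts (%) of each of the 7 features in the 28 libraries, by group; titles leave out the shared prefix MGP_BALBcJ_, each point is 1 library, bars are group means, open diamonds are libraries of animals from the higher number range, and only the panel of G0029684 has a log axis. The 9 LLPC libraries lie apart from all others in 5 panels (G0007650, G0029684, G0030305, G0009097 and G0024435), and in the panel of G0030878 both CD23+ diamonds and the LLPC diamond stand above the other libraries of their groups.

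MGP_BALBcJ_G0007650 was the most abundant feature in all 28 libraries. In CD23+ WT its share had a lowest value of 6.03%, a median of 7.60% and a highest of 8.15%. It was 7.88%, 7.27% and 6.86% in the CD23+ cKO low libraries and 5.80%, 9.66% and 8.28% in the CD23+ cKO high libraries. The 3 CD23+ groups overlapped, and the cKO high libraries enclosed the whole WT range. ABC WT libraries held 6.45%, 6.11%, 9.66% and 11.3%, and ABC cKO high libraries 8.21%, 8.52% and 8.77%, which lie inside the ABC WT range. In LLPC WT the share ran from 11.6% through a median of 16.3% to 21.2%, and LLPC cKO high libraries held 19.6%, 18.1% and 21.3%. The order of means was CD23+ cKO low (7.34% ± 0.514), CD23+ WT (7.36% ± 0.739), CD23+ cKO high (7.91% ± 1.96), ABC WT (8.38% ± 2.51), ABC cKO high (8.50% ± 0.279), LLPC WT (16.7% ± 3.22) and LLPC cKO high (19.7% ± 1.62). In that order the only neighbours that differed by more than both SDs were ABC cKO high and LLPC WT.

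MGP_BALBcJ_G0009097 had a much smaller share than MGP_BALBcJ_G0007650 and moved with it from library to library. It ran from 0.172% through a median of 0.213% to 0.237% in CD23+ WT, and it was 0.236%, 0.214% and 0.213% in CD23+ cKO low and 0.161%, 0.307% and 0.270% in CD23+ cKO high. ABC WT libraries held 0.194%, 0.205%, 0.329% and 0.364%, and ABC cKO high libraries 0.278%, 0.278% and 0.275%. In LLPC WT it ran from 0.528% through 0.759% to 1.05%, and LLPC cKO high libraries held 0.847%, 0.8288% and 1.04%. Its means stood in the order CD23+ WT (0.211% ± 0.0250), CD23+ cKO low (0.221% ± 0.0130), CD23+ cKO high (0.246% ± 0.0756), ABC WT (0.273% ± 0.0863), ABC cKO high (0.277% ± 0.00176), LLPC WT (0.773% ± 0.182) and LLPC cKO high (0.905% ± 0.117), and only ABC cKO high and LLPC WT differed as neighbours by more than both SDs. The library lowest in one was also the lowest in the other in the 3 CD23+ groups and both LLPC groups, but in neither ABC group. The ratio of MGP_BALBcJ_G0007650 to MGP_BALBcJ_G0009097 counts was 34.0 ± 1.89 over the 12 CD23+ libraries (SD), 30.8 ± 1.39 over the 7 ABC libraries and 21.8 ± 1.67 over the 9 LLPC libraries. It ran from 30.7 to 36.7 in CD23+ cells, from 29.4 to 33.2 in ABC and from 20.1 to 25.5 in LLPC. The plasma cell ratios therefore lay below all others, while CD23+ and ABC ratios overlapped.

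Likeness of pattern was measured as Spearman's rho of log2 CPM over the 28 libraries, which share animals and fall into 3 subsets, so it is a description. MGP_BALBcJ_G0007650 and MGP_BALBcJ_G0009097 had a rho of 0.99, and 0 of 9895 other features averaging 5 CPM or more were closer to either. After the group means were taken out, their rho was 0.93 and again 0 other features were closer to either. No other pair of members came near this. MGP_BALBcJ_G0030305 and MGP_BALBcJ_G0024435 had a rho of 0.85, with 495 and 43 other features closer to each. MGP_BALBcJ_G0029684 and MGP_BALBcJ_G0009097 also had 0.85, with 327 other features closer to MGP_BALBcJ_G0029684. After the group means were taken out, the highest rho with any member was 0.24 for MGP_BALBcJ_G0030305 and 0.46 for MGP_BALBcJ_G0029684. The non-member closest to MGP_BALBcJ_G0030305 was MGP_BALBcJ_G0019437 (rho 0.98) and the one closest to MGP_BALBcJ_G0029684 was MGP_BALBcJ_G0035969 (rho 0.96). These were the highest values between a member and a non-member, but 169 and 114 non-members reached at least 0.9 with these members. With the group means taken out, other features were closest to them, at 0.92 and 0.84. For MGP_BALBcJ_G0005777 the closest non-member reached 0.81, the lowest of the 7. The rho of MGP_BALBcJ_G0005777 with MGP_BALBcJ_G0007650 was -0.72, and -0.42 after the group means were taken out.

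**Figure D2:**
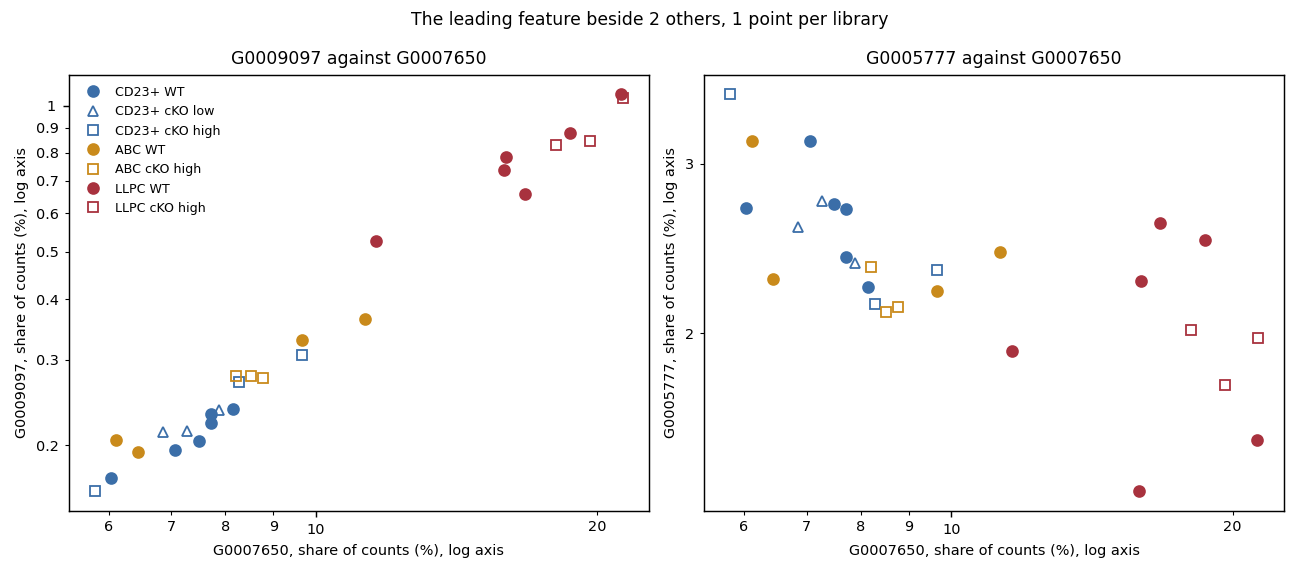
Shares of library counts (%, log axes) of G0009097 and of G0005777 against that of G0007650, 1 point per library, with colour for the subset and filled symbols for WT. In the left panel the libraries fall along 1 band, with count ratios from 20.1 to 36.7; in the right panel CD23+ and ABC libraries lie between 2.11% and 3.54% on the vertical axis and LLPC libraries between 1.37% and 2.60%.

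MGP_BALBcJ_G0005777 was the second feature by count in all 19 CD23+ and ABC libraries and ranked 4 to 6 in LLPC. Its share ran from 2.23% through a median of 2.69% to 3.17% in CD23+ WT. CD23+ cKO low libraries held 2.36%, 2.74% and 2.58%, and CD23+ cKO high libraries 3.54%, 2.32% and 2.15%. The highest of these, CD23+ cKO high replicate 1, was the CD23+ library with the lowest share of MGP_BALBcJ_G0007650. ABC WT libraries held 2.28%, 3.16%, 2.21% and 2.43%, and ABC cKO high libraries 2.34%, 2.11% and 2.13%. In LLPC WT the share ran from 1.37% through 2.09% to 2.60%, and it was 1.77%, 2.01% and 1.98% in LLPC cKO high. The order of means was LLPC cKO high (1.92% ± 0.133), LLPC WT (2.03% ± 0.507), ABC cKO high (2.19% ± 0.130), ABC WT (2.52% ± 0.440), CD23+ cKO low (2.56% ± 0.189), CD23+ WT (2.65% ± 0.321) and CD23+ cKO high (2.67% ± 0.759), and no 2 neighbours differed by more than both SDs. WT replicate 2 of CD23+ and of ABC, which come from the same animal, had the highest WT share in each, and the LLPC library of that animal had the lowest LLPC share. The ratio of MGP_BALBcJ_G0007650 to MGP_BALBcJ_G0005777 counts was less even than the ratio above, from 1.64 to 4.16 in CD23+ cells, 1.93 to 4.65 in ABC and 6.06 to 13.7 in LLPC.

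MGP_BALBcJ_G0029684 was abundant in LLPC libraries and low in the others. It stood at 24866 ± 8603 CPM in LLPC WT (SD, n = 6), from 15577 to 38256 CPM, and at 28429, 23278 and 28620 CPM in LLPC cKO high, where it ranked 5 in every library. In CD23+ WT it stood at 7.59 ± 4.52 CPM (n = 6), from 3.7996 to 13.8 CPM on 33 to 305 counts, which is 0.0305% of the LLPC WT mean. CD23+ cKO low libraries held 14.6, 5.84 and 8.89 CPM and CD23+ cKO high libraries 7.82, 14.7 and 31.8 CPM. At these levels the Wilson interval reached up to 34.6% of the value on either side. ABC lay between the other subsets, with 181.4, 26.4, 590.1 and 238.8 CPM in WT and 87.0, 90.0 and 291.5 CPM in cKO high. The ABC values spanned more than an order of magnitude, and on the log2 scale their SD of 1.88 in ABC WT was larger than that of 99.9% of the 4015 features that averaged 50 CPM or more in that group. In the order of means, CD23+ WT, CD23+ cKO low (9.77 ± 4.42 CPM), CD23+ cKO high (18.1 ± 12.4), ABC cKO high (156.2 ± 117.2), ABC WT (259.2 ± 238.2), LLPC WT and LLPC cKO high (26776 ± 3031), the neighbours that differed by more than both SDs were CD23+ cKO high and ABC cKO high, and ABC WT and LLPC WT. The summed share of the 18 features with the lowest IDs, which was 10.95% to 26.7% in LLPC WT and 0.573% to 0.687% in CD23+ WT, is given beside these values. In ABC WT it was 1.03%, 0.576%, 1.95% and 1.22% in replicates 1 to 4, which is the same order of libraries as for MGP_BALBcJ_G0029684. In ABC cKO high it was 0.860%, 1.04% and 1.39%, again in the same order. In the other subsets the order was not shared throughout: LLPC cKO high replicate 2 had the highest summed share of its group (26.95%) with the lowest share of MGP_BALBcJ_G0029684 (2.33%), and LLPC WT replicate 3 had 23.2% with 1.58%, the lowest but one of its group. The part of the lowest IDs in the ABC values of MGP_BALBcJ_G0029684 was not tested, and in bulk RNA fewer cells with a transcript and less transcript per cell cannot be told apart.

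MGP_BALBcJ_G0030305 and MGP_BALBcJ_G0024435 were both low in plasma cells. MGP_BALBcJ_G0030305 ran from 0.446% through 0.522% to 0.565% in CD23+ WT, and it was 0.541%, 0.582% and 0.489% in CD23+ cKO low and 0.469%, 0.521% and 0.587% in CD23+ cKO high. ABC WT libraries held 0.646%, 0.571%, 0.632% and 0.656%, all above the CD23+ WT range, and ABC cKO high libraries 0.664%, 0.674% and 0.687%. In LLPC WT it ran from 0.122% through 0.163% to 0.192%, and LLPC cKO high libraries held 0.157%, 0.155% and 0.134%. Its means were lowest in LLPC cKO high (0.149% ± 0.0130) and LLPC WT (0.162% ± 0.0270), followed by CD23+ WT (0.512% ± 0.0584), cKO high (0.5256% ± 0.0593) and cKO low (0.538% ± 0.0464), and highest in ABC WT and ABC cKO high. Steps larger than both SDs were those from LLPC WT to CD23+ WT, from CD23+ cKO low to ABC WT and from ABC WT to ABC cKO high. MGP_BALBcJ_G0024435 ran from 0.490% through 0.566% to 0.613% in CD23+ WT, and it was 0.569%, 0.599% and 0.474% in CD23+ cKO low and 0.510%, 0.585% and 0.594% in CD23+ cKO high. ABC WT libraries held 0.588%, 0.515%, 0.560% and 0.553%, and ABC cKO high libraries 0.612%, 0.619% and 0.6001%. In LLPC WT it ran from 0.0658% through 0.0879% to 0.132%, and LLPC cKO high libraries held 0.0923%, 0.121% and 0.111%. Its means were 0.0930% ± 0.0246 in LLPC WT and 0.108% ± 0.0146 in LLPC cKO high, then 0.548% ± 0.0656 in CD23+ cKO low, 0.554% ± 0.0301 in ABC WT, 0.560% ± 0.0421 in CD23+ WT, 0.563% ± 0.0460 in CD23+ cKO high and, at the top, 0.610% ± 0.00936 in ABC cKO high. Steps larger than both SDs were the one from LLPC cKO high to CD23+ cKO low and, narrowly, the last. By rank MGP_BALBcJ_G0024435 was among the first 8 features in all CD23+ and ABC libraries and between 40 and 119 in LLPC. The ratio of MGP_BALBcJ_G0024435 to MGP_BALBcJ_G0030305 counts was 1.07 ± 0.0674 in CD23+ libraries (n = 12), 0.893 ± 0.0279 in ABC (n = 7) and 0.643 ± 0.201 in LLPC (n = 9), with no overlap between the first 2.

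MGP_BALBcJ_G0030878 was high in libraries of 2 animals. In CD23+ WT 5 libraries lay between 0.485% and 0.574%, while replicate 6 held 0.952%. In CD23+ cKO low, replicates 1 and 2 held 0.545% and 0.554% and replicate 3 held 0.999%. In LLPC WT 5 libraries lay between 0.213% and 0.323%, while replicate 6 held 0.622%. These 3 libraries come from 2 animals whose numbers, read from the names of the deposited tables, lie in a higher range than those of the other 10 animals; no source used here says what the range stands for. They held 1.83, 1.82 and 2.22 times the mean of the other libraries of their groups. In the CD23+ libraries 19 of 3939 and 66 of 3948 features that averaged 50 CPM or more had a larger log2 difference from the others, but in LLPC WT replicate 6 it was 496 of 2747. LLPC WT replicate 6 also stood apart in composition: the lowest IDs took 10.95% of its counts, against 19.5% to 26.7% in the other LLPC WT libraries, and features other than these and the members took 72.6%, against 48.4% to 58.5%. The part of that composition in its share of MGP_BALBcJ_G0030878 was not tested. The fourth library of these animals, ABC WT replicate 4, held 0.653%, against 0.631%, 0.573% and 0.544% in the other ABC WT libraries, or 1.12 times their mean. Among 3742 features that averaged 50 CPM or more, the smallest of the log2 differences in the first 3 libraries was 0.86 for MGP_BALBcJ_G0030878, and 16 features had a larger smallest difference. When ABC WT replicate 4 was included the smallest difference was 0.17, and 179 features had a larger one. The remaining groups were more even, with 0.406%, 0.496% and 0.478% in the CD23+ cKO high libraries, 0.573%, 0.639% and 0.553% in those of ABC cKO high and 0.273%, 0.230% and 0.233% in LLPC cKO high. No cKO high animal lies in the higher number range. The order of means was LLPC cKO high (0.246% ± 0.0240), LLPC WT (0.337% ± 0.144), CD23+ cKO high (0.460% ± 0.0478), ABC cKO high (0.589% ± 0.0453), CD23+ WT (0.592% ± 0.180), ABC WT (0.6005% ± 0.0506) and CD23+ cKO low (0.699% ± 0.259), and only the step from CD23+ cKO high to ABC cKO high was larger than both SDs.

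The other members were compared in the same 4 libraries. MGP_BALBcJ_G0024435 had 0.854, 0.811 and 0.669 times the mean of the other libraries in CD23+ WT replicate 6, CD23+ cKO low replicate 3 and LLPC WT replicate 6, and 0.999 times in ABC WT replicate 4. MGP_BALBcJ_G0007650 had 0.791, 0.906 and 0.655 times that mean in the same 3 libraries and 1.52 times in ABC WT replicate 4, and MGP_BALBcJ_G0009097 went with it at 0.785, 0.948, 0.642 and 1.502 times. MGP_BALBcJ_G0030305 had 0.864, 0.871 and 1.23 times and 1.06 times in ABC WT replicate 4, and MGP_BALBcJ_G0029684 0.823, 0.871 and 0.583 times. In ABC WT replicate 4 the direction for MGP_BALBcJ_G0029684 depended on the mean: its ratio to the plain mean of the others, which include replicate 3 at 590.1 CPM, was 0.898, while it lay 0.75 above their mean in log2 CPM, with 24 of 4015 features further above. MGP_BALBcJ_G0005777 stayed between 0.930 and 1.02 times the mean in all 4.

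**Figure D3:**
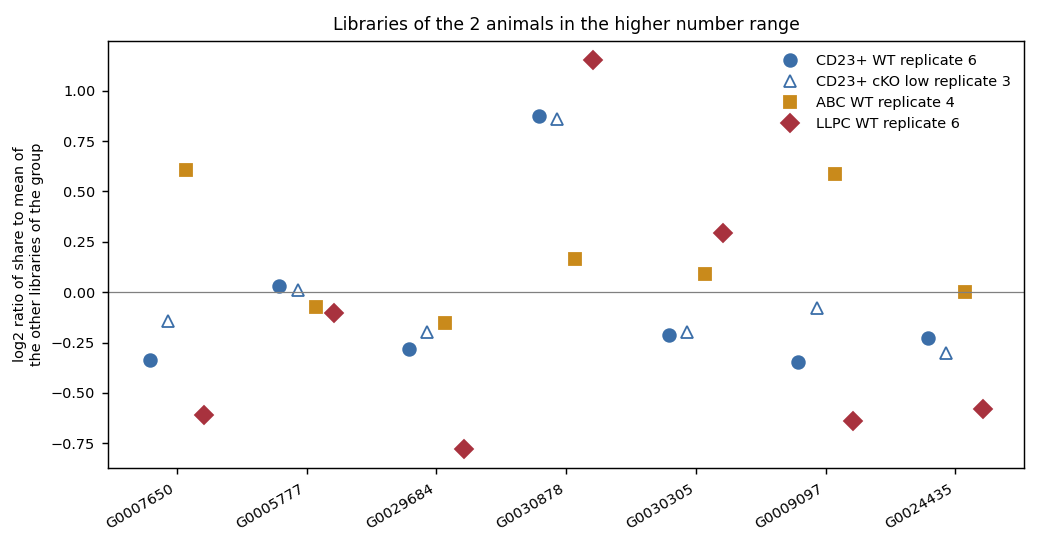
Log2 ratio of each feature's share in the 4 libraries of the 2 animals with higher numbers to the mean share of the other libraries of the same group. G0030878 is the 1 feature with all 4 ratios above 0 and 3 of them at 0.86 or more.

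WT libraries of the subsets were compared to describe how far the members differ between sorted populations without the deletion. The shares that chose the members are the shares compared here, and several features are members through 1 subset alone, so these differences are given as descriptions with their SE and without p-values. They come from an edgeR quasi-likelihood fit to all features with TMM scaling, a scale that takes the middle of all features as unchanged. The animal was left out of the fit, although the subsets share animals. At an adjusted p under 0.05 that fit counts 5 of the 7 members beside 68.1% of 13503 features between LLPC and CD23+ WT, 5 members beside 52.9% between LLPC and ABC WT, and 1 member beside 23.4% between ABC and CD23+ WT, and nothing is read from these counts.

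On the log2 scale MGP_BALBcJ_G0029684 lay 12.32 above its CD23+ WT level in LLPC WT (SE 0.853), MGP_BALBcJ_G0009097 lay 2.53 above (SE 0.260) and MGP_BALBcJ_G0007650 lay 1.84 above (SE 0.290). MGP_BALBcJ_G0024435 stood at -1.94 (SE 0.208) and MGP_BALBcJ_G0030305 at -1.06 (SE 0.142). Against ABC WT the values of these 5, in that order of features, were 7.24, 2.16, 1.65, -1.91 and -1.33. In both comparisons the WT shares of these 5 did not overlap, beside 51.2% and 43.6% of all features tested; in the comparison with ABC 7.54% of features were higher in LLPC without overlap. MGP_BALBcJ_G0030878 had log2 differences of -0.25 against CD23+ WT (SE 0.198) and -0.26 against ABC WT (SE 0.2196), and its shares overlapped. MGP_BALBcJ_G0005777, whose shares also overlapped, had 0.25 (SE 0.216) and 0.34 (SE 0.244), and 0.45 and 0.52 without LLPC WT replicate 6.

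The choice of scale changed the values for plasma cells. The 7 members and the lowest IDs left 56.0% ± 8.87 of counts for all other features in LLPC WT (n = 6), against 87.5% ± 0.558 in CD23+ WT (n = 6). On plain library totals the median log2 difference of all features moved from -0.02 to -0.62 for LLPC against CD23+ WT and from -0.05 to -0.65 for LLPC against ABC WT. The direction of MGP_BALBcJ_G0005777 in LLPC flipped with it, to -0.38 and -0.31, while relative to those medians it stayed above 0. MGP_BALBcJ_G0030878 had -0.81 and -0.83 on plain totals. The 5 members without overlap kept their direction on plain totals, with 1.18 for MGP_BALBcJ_G0007650, 1.88 for MGP_BALBcJ_G0009097, 11.66 for MGP_BALBcJ_G0029684, -1.66 for MGP_BALBcJ_G0030305 and -2.59 for MGP_BALBcJ_G0024435 against CD23+ WT. Of all features called between LLPC and CD23+ WT, 4526 were higher and 4663 lower on the TMM scale, against 2682 and 7225 on plain totals.

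Within single animals, shares on plain totals were compared between subsets. On this scale the median log2 difference of all features was -0.62 for LLPC against CD23+ WT and -0.65 against ABC WT. A share below that of another subset is therefore common in LLPC. The animal counts below were not set beside those of all features. They use the shares that chose the members, so they are descriptions. In 9 animals with both subsets, WT and cKO high together, the LLPC share was above the CD23+ share in 9 for MGP_BALBcJ_G0007650 (median 2.25-fold, from 1.87 to 3.39) and in 9 for MGP_BALBcJ_G0009097 (median 3.76-fold, from 2.702 to 5.25). It was also above in 9 of 9 for MGP_BALBcJ_G0029684 (median 2419-fold, from 899.7 to 7846). It was above in 0 of 9 for MGP_BALBcJ_G0024435 (median 0.181-fold), MGP_BALBcJ_G0030305 (0.298-fold) and MGP_BALBcJ_G0030878 (0.545-fold), and in 1 of 9 for MGP_BALBcJ_G0005777 (0.842-fold). Against ABC, in 7 animals, the LLPC share of MGP_BALBcJ_G0007650 was above in 7 with a median of 2.39-fold, but in 1 animal, that of LLPC WT replicate 6 and ABC WT replicate 4, by 1.03-fold. MGP_BALBcJ_G0009097 (median 3.05-fold) and MGP_BALBcJ_G0029684 (134.5-fold) were above in 7 of 7, and MGP_BALBcJ_G0024435 (0.165-fold), MGP_BALBcJ_G0030305 (0.236-fold) and MGP_BALBcJ_G0030878 (0.464-fold) in 0 of 7. ABC against CD23+ cells gave no common direction for MGP_BALBcJ_G0007650, whose share was above in 4 of 7 animals (median 1.06-fold), nor for MGP_BALBcJ_G0009097, above in 5 of 7 (1.05-fold). The ABC share of MGP_BALBcJ_G0005777 was above in 0 of 7 (median 0.907-fold, from 0.662 to 0.998).

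**Figure D4:**
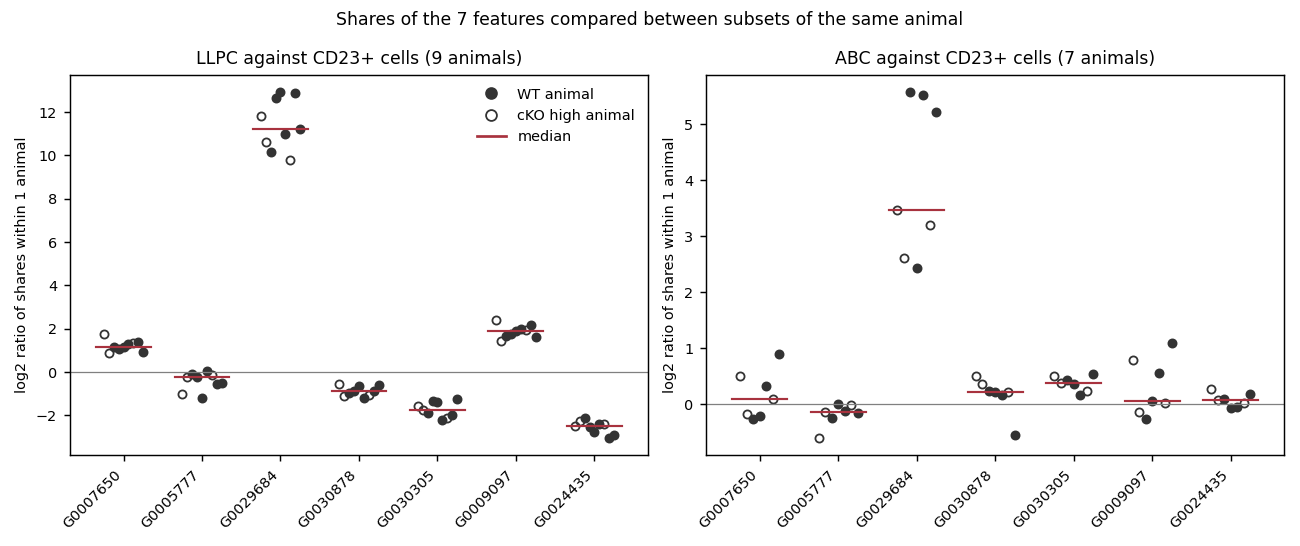
Log2 ratio of a feature's share between 2 subsets of the same animal, LLPC against CD23+ cells in 9 animals and ABC against CD23+ cells in 7, on plain library totals; filled points are WT and open points cKO high animals, and lines are medians. G0029684 reaches log2 ratios from 9.81 to 12.94 in LLPC. In the ABC panel only G0029684 and G0030305 are above 0 in all 7 animals, and only G0005777 is below 0 in all 7.

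Between ABC and CD23+ WT, MGP_BALBcJ_G0029684 lay 5.08 higher in ABC on the log2 scale (SE 0.663) and MGP_BALBcJ_G0030305 lay 0.28 higher (SE 0.156). The WT shares of these 2 members did not overlap and were higher in ABC, as for 14.4% of all features tested (25.1% in either direction). The share of MGP_BALBcJ_G0030305 was above the CD23+ share of the same animal in 7 of 7 animals (median 1.29-fold, from 1.12 to 1.45). The 95% interval of MGP_BALBcJ_G0030305 ran from -0.05 to 0.61 on the log2 scale, with both directions inside it. Those of the other 5 members ran from -0.60 to 0.95 at the widest. MGP_BALBcJ_G0007650 and MGP_BALBcJ_G0009097 varied within ABC WT, where their SDs of 0.43 and 0.46 in log2 CPM were larger than those of 96.6% and 97.3% of the 4015 features that averaged 50 CPM or more.

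The cKO groups were then compared with WT in each subset, and the cKO high with the cKO low animals in CD23+ cells, to ask whether the deletion or the disease state went with a change. The edgeR test called 0 of the 35 member values in these 5 comparisons, and DESeq2 and limma also called 0. At an unadjusted edgeR p under 0.05 there were 2 of the 35, both described below. Over all features this was reached by 300 of 12542 for CD23+ cKO low against WT and by 1370 for CD23+ cKO high against WT. It was reached by 811 for CD23+ cKO high against cKO low, 1494 of 12714 in ABC and 540 of 11739 in LLPC. A count of 2 among 35 therefore does not set the members apart. The edgeR test called 0.0239% of all 12542 features for CD23+ cKO low against WT, 0.439% for CD23+ cKO high against WT, 0% for CD23+ cKO high against cKO low, 1.13% of 12714 for ABC and 0.00852% of 11739 for LLPC, so a count of 0 among 7 members does not set them apart. For cKO high against cKO low, edgeR and limma each called 0 features, DESeq2 called 36, and 811 features had an unadjusted edgeR p under 0.05. Median log2 differences of the 7 were 0.08, 0.06, 0.07, 0.01 and 0.28 in that order, beside -0.00497, -0.00824, -0.00225, -0.0103 and -0.0241 over all features. The comparisons of CD23+ cKO low and cKO high with WT share the 6 WT libraries.

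The intervals show what these libraries could have missed. In CD23+ cKO low against WT, the 95% intervals of the 6 members other than MGP_BALBcJ_G0029684 lay between 0.782-fold and 1.69-fold, and in CD23+ cKO high against WT between 0.556-fold and 1.504-fold. In ABC cKO high against WT they lay between 0.684-fold and 1.48-fold. In LLPC cKO high against WT they were wider, between 0.582-fold and 2.92-fold. In CD23+ cKO high against cKO low they lay between 0.441-fold and 1.48-fold. The leading feature MGP_BALBcJ_G0007650 had log2 differences of 0.01 (SE 0.154), 0.13 (SE 0.153), 0.01 (SE 0.225) and 0.42 (SE 0.506) in CD23+ cKO low, CD23+ cKO high, ABC and LLPC against WT, with edgeR adjusted p-values of 0.997, 0.798, 0.996 and 0.808. MGP_BALBcJ_G0009097 had 0.08, 0.25, 0.01 and 0.42, MGP_BALBcJ_G0005777 had -0.04, 0.03, -0.20 and 0.14, and MGP_BALBcJ_G0024435 had -0.02, 0.03, 0.14 and 0.42.

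MGP_BALBcJ_G0029684 differed by 1.25 on the log2 scale between CD23+ cKO high and WT (SE 0.542, 95% interval 0.04 to 2.45, unadjusted p = 0.0436, edgeR adjusted p = 0.442). The groups overlapped, and the highest of the 3 cKO high values, 31.8 CPM, was in replicate 3, without which the difference was 0.59. In ABC the value for this feature was -0.73 (SE 1.09, 95% interval -3.49 to 2.04); it was 0.08 without ABC WT replicate 3 and -1.57 without ABC cKO high replicate 3. The test of the difference between both effects gave -1.97 (SE 0.943, unadjusted p = 0.0468, edgeR adjusted p = 1.00 after rounding), and leaving out 1 library at a time it ran from -2.81 (without ABC cKO high replicate 3) to -1.16 (without ABC WT replicate 3). The SE of that test comes from the fit to all 28 libraries, while the SE of the ABC value comes from the ABC libraries alone. In LLPC, where MGP_BALBcJ_G0029684 is abundant, the difference between cKO high and WT was 0.28 (SE 0.471, edgeR adjusted p = 0.865).

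MGP_BALBcJ_G0030878 differed by -0.60 between CD23+ cKO high and cKO low (SE 0.270, unadjusted p = 0.0437, edgeR adjusted p = 0.714). The shares of these groups did not overlap, which held for 1 of 7 members and for 10.9% of 12542 features (5.21% higher in cKO high, the others lower). Without the 2 CD23+ libraries of the higher number range the difference was -0.24 (SE 0.107, adjusted p = 0.951), and the difference between cKO low and WT went from 0.26 (SE 0.230) to 0.08 (SE 0.098). Against WT, CD23+ cKO high had -0.34 (SE 0.236, adjusted p = 0.623), and -0.15 (SE 0.0863, adjusted p = 0.512) without these libraries.

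In ABC the shares of MGP_BALBcJ_G0024435 and MGP_BALBcJ_G0030305 were higher in all 3 cKO high libraries than in all 4 WT libraries. For MGP_BALBcJ_G0024435 the means were 0.610% ± 0.00936 and 0.554% ± 0.0301 (log2 difference 0.14, SE 0.112, edgeR adjusted p = 0.693), and for MGP_BALBcJ_G0030305 they were 0.675% ± 0.0117 and 0.626% ± 0.0382 (log2 difference 0.11, SE 0.117, adjusted p = 0.8). Groups that do not overlap were seen for 11.9% of 12714 features in this comparison, and 6.17% were higher in cKO high, beside 2 of 7 members. In CD23+ cKO low against WT 0 members were without overlap, beside 1.66% of features (0.566% higher in cKO low), and in CD23+ cKO high against WT also 0, beside 6.31% (2.60% higher). In LLPC it was 0 members, beside 3.43% of features (0.349% higher in cKO high). The 3 ABC cKO high libraries were close together in several members, though not in all. Among features averaging 50 CPM or more, MGP_BALBcJ_G0029684 had an SD of 0.989 in log2 CPM, larger than that of 99.9%. The SD of MGP_BALBcJ_G0030878 was larger than that of 49.3%. The SD of MGP_BALBcJ_G0009097 was 0.00925 in log2 CPM, smaller than that of all but 0.595% of 4032 features that averaged 50 CPM or more, and those of MGP_BALBcJ_G0024435 and MGP_BALBcJ_G0030305 were smaller than all but 3.08% and 3.92%. In the CD23+ cells of the cKO high group, from the same 3 animals, MGP_BALBcJ_G0009097 had an SD of 0.491, larger than that of 99.4% of 3928 such features.

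**Figure D5:**
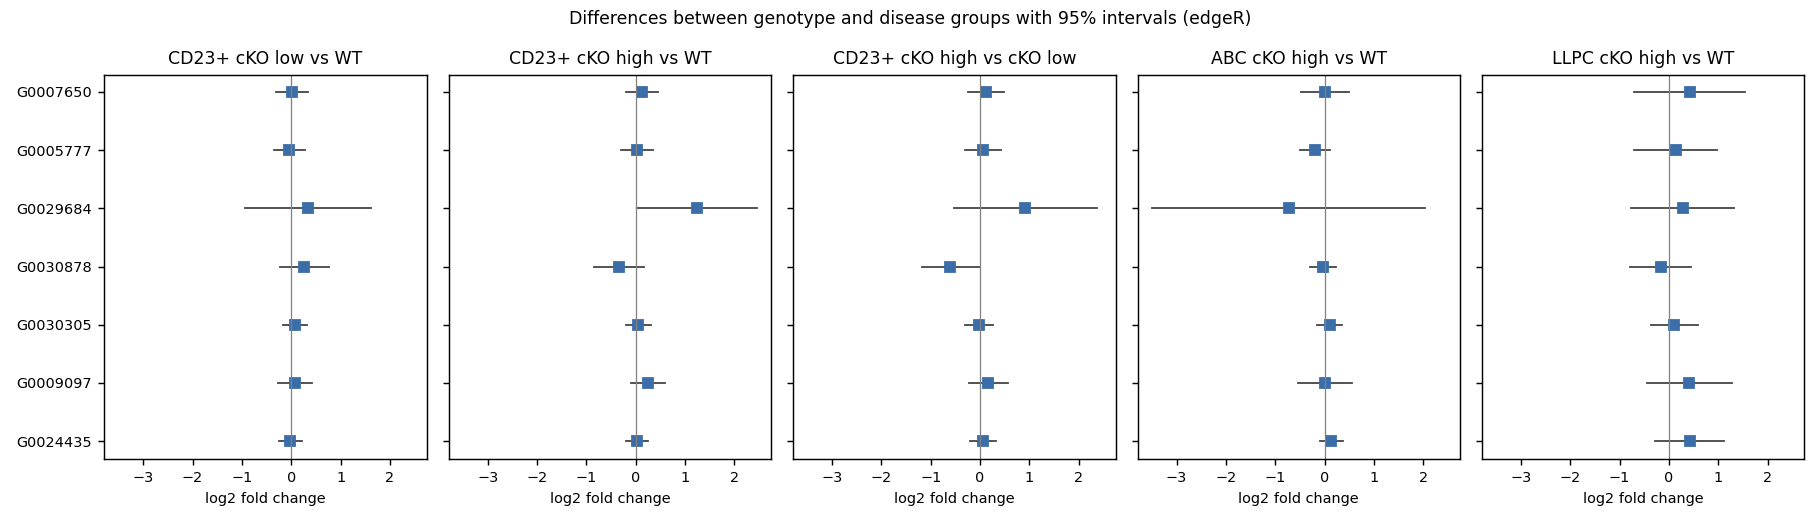
Log2 fold change (edgeR, TMM scale) of each feature in the 5 comparisons of genotype and disease groups, squares with 95% intervals. Intervals of G0029684 are the widest in the CD23+ and ABC panels, the LLPC intervals are wide for most members, and no value passed the adjusted threshold.

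Whether the cKO high effect differed between subsets was tested with all 28 libraries in 1 fit. It had 1 coefficient per group and left out the animal, so libraries of the same animal entered as if independent. Of the 7 members 0 were called by edgeR, DESeq2 or limma for ABC minus CD23+, LLPC minus CD23+ or LLPC minus ABC. In that order edgeR called 0%, 0.00708% and 0.0354% of 14123 features, DESeq2 called 27, 53 and 41 features, and limma 20, 4 and 9. An unadjusted edgeR p under 0.05 was seen for 703, 1430 and 1482 features. The only member value with an unadjusted p under 0.05 in these 3 tests was that of MGP_BALBcJ_G0029684 given above. For MGP_BALBcJ_G0007650 the differences were -0.10 (SE 0.408), 0.29 (SE 0.393) and 0.39 (SE 0.408), with 95% intervals from -0.94 to 1.23 at the widest.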

How the data were processed

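RNA of 28 libraries from 12 animals was analysed, with groups taken from the sample labels and animals from a number that recurs in the names of the deposited tables. Per the labels' protocols, sorted cells were kept in TRIzol, and the library kit (SMARTer Pico) is one for little or degraded total RNA. FastQC, STAR 2.7.1a and featureCounts are named in the submitters' processing notes; build, strand setting and use of molecular identifiers are not given, so overlapping and near-identical features are uncertain. The deposited values are counts per feature, not normalized, 1 table per library, and 8156 of 40303 features had no count. No ID matched the mouse gene tables, so the planned marker lists were not used. In every pair of replicates the counts differed beyond sampling noise (chi-square per degree of freedom 3.73 to 205.5).

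Shares and CPM use plain library totals; log2 CPM used a prior count of 2. Differences were fitted over all features with R 4.3.3 and edgeR 4.0.16 (filterByExpr, TMM, robust dispersions, two-sided quasi-likelihood test, Benjamini-Hochberg), each subset alone, the WT libraries together and all libraries together. All 7 members passed the filter in each of these fits. The labels call libraries biological replicates, and each p-value sets a difference against the spread between these libraries. In the main fits of several subsets together, libraries of the same animal entered as if independent. Alternatives were DESeq2 1.42.0, limma 3.58.1, other scalings and filters, blocks and left-out libraries. The script was tested on simulated data. Members, lists and tests were chosen with earlier results of these data known. All 7 members are named; of non-members, those in the 2 closest pairs. Deviations from group means, correlated across features between 2 subsets, had medians in the same animal of 0.19 (CD23+ and ABC), 0.14 (CD23+ and LLPC) and 0.07 (ABC and LLPC), against -0.02, -4.98e-05 and -0.03 between animals.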

Additional observations from a re-analysis of the deposited data

Results flagged for a closer look

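Shares of the 7 features were checked for a library far from the rest in 21 cases, the 7 features in each of the 3 WT groups of 4 to 6 libraries; chance flags about 1 in 20, or 1.05 here, and the cKO groups of 3 are too small for the check. MGP_BALBcJ_G0030878 stood apart in 2 of them. In CD23+ WT replicate 6 held 0.952% of counts, and the gap to the next library was 0.808 of the whole range, above the limit for 6 libraries. In LLPC WT replicate 6 held 0.622%, with a gap of 0.732 of the range. That LLPC library also stood apart in composition, with 10.95% of counts in the lowest IDs against 19.5% to 26.7% in the others, and the part of this was not tested. Both libraries come from the same animal, so these are not separate observations. The ABC library of that animal, at 0.653%, was the highest of its group without standing apart, with a gap of 0.202 of the range, below the limit for 4 libraries.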

How the results depend on the processing

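The number of members called was recomputed 280 times under alternatives, and 279 of these gave counts within 1.5 times the main one; limma called 2 members in place of 1 for ABC against CD23+ WT. Leaving out 1 library at a time gave 0 to 0 members in each genotype comparison and in each test of a difference between subsets, 1 to 1 for ABC against CD23+ WT, and 5 to 6 for LLPC against CD23+ WT and for LLPC against ABC WT. With the replicate number as a block, 0 members were called in all 5 genotype comparisons, where same-numbered libraries are different animals; with the animal as a block, 1, 5 and 5 members were called between the WT subsets and 0 for the differences of effects, so the block changed no call. No member value that passed the threshold lost it or its direction, and 5 others passed under 1 alternative each, all between WT subsets: MGP_BALBcJ_G0030305 with limma, MGP_BALBcJ_G0005777 in both LLPC comparisons without LLPC WT replicate 6, and MGP_BALBcJ_G0030878 in both on plain totals. Between subsets the members were chosen on the levels compared, so none of this tests them. Of 1960 recomputed log2 fold changes 77 changed sign, all of them uncalled. Of 560 recomputed differences in mean share, 551 stayed within the pooled SD of the main value, 8 moved further and 1 reversed. Changes of sign were seen in 43. Taken outside the lowest IDs, the difference in mean share of MGP_BALBcJ_G0005777 between LLPC and ABC WT was 0.0542 percentage points in place of a negative value. Over all features, edgeR, DESeq2 and limma called 55, 138 and 129 for CD23+ cKO high against WT, 144, 442 and 238 for ABC cKO high, 1, 3 and 2 for LLPC cKO high, and 3, 5 and 4 for CD23+ cKO low; without the filter edgeR called 237, 629, 1 and 14. Depth limits MGP_BALBcJ_G0029684 in CD23+ cells, with 33 to 305 counts per library.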
